A study of Mus musculus with 4 samples.

Results

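Matrix metalloproteinases (MMPs), ADAMs, ADAMTS proteinases, ADAMTS-like proteins and tissue inhibitors of metalloproteinases (TIMPs) were followed in mouse embryonic fibroblasts, the connective-tissue cells grown out of embryos. Members were all array features whose platform annotation gave a symbol made of Mmp, Adam, Adamts, Adamtsl or Timp and a number. This gave 136 of 45018 features, for 76 of the 19087 genes that had a feature with 1 symbol. They were 20 MMP, 30 ADAM, 17 ADAMTS, 5 ADAMTS-like and 4 TIMP genes. Total RNA of an Mll1-/- fibroblast cell line was hybridised against total RNA of a wild-type line on each of 4 two-colour arrays, both lines having been grown in serum-containing medium. Dyes were swapped: on arrays 1 and 3 Cy5 marked the Mll1-/- RNA, whereas on arrays 2 and 4 it was Cy3. Each array gave 1 log2 ratio per feature. Mll1, now Kmt2a, encodes a histone H3 lysine 4 methyltransferase. The sources used here do not say how the allele was made, how many animals or clones the lines came from, or whether the arrays shared RNA extracts. Line and genotype therefore cannot be told apart, and the p-values reflect array-to-array spread that may be only technical.

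Ratios are given as Mll1-/- over wild type. This direction is likely and not stated in the sources used here. It rests on the sample titles, which name the mutant first, and on Kmt2a, which lay below 0 on every array (log2 ratio −1.24 ± 0.42, limma adjusted p = 0.0138). Whether the Kmt2a feature lies within the altered part of the gene is not known here. Errors throughout are SDs of 4 arrays (n = 4). Should the true direction be the opposite one, each "rose" and "fell" trades places. Array medians over all features lay between −0.02 and 0.03, and 31603 to 37425 features had a value on an array. The values are ratios, so the level of a gene in either line is unknown, 2 genes cannot be ranked by expression, and the signal behind a ratio is not seen. In such bulk RNA fewer cells of a type and less RNA per cell cannot be told apart.

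These families cut and remodel the space around cells. MMPs are zinc endopeptidases, secreted or held on the membrane, that cleave collagens, gelatin, proteoglycans and other matrix proteins and are made as inactive precursors. ADAMs are membrane proteins, some of which shed the outer parts of growth factors and receptors, while others lack the catalytic site and serve in adhesion. ADAMTS enzymes are secreted and cleave proteoglycans, procollagens or other matrix proteins, ADAMTS-like proteins resemble them without a protease domain, and TIMPs bind and block MMPs and some of the other enzymes.

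The knockout fibroblasts had lower Mmp2, Mmp14, Mmp3, Mmp13, Adam19 and Adam23 and higher Mmp16, Mmp17, Adamtsl3 and Adamtsl5. The size of the Adamtsl3 rise differed with the dye orientation. Mmp9 was also higher and Adamts16 lower, but leaving out an array could lose either call. The TIMPs moved by less than 2-fold. A gene was tested when at least 1 of its features had a value on all 4 arrays, which held for 54 of the 76 genes. Of these 54, 12 rose and 19 fell in Mll1-/- fibroblasts and 23 did not pass (limma with a dye term, Benjamini-Hochberg adjusted p under 0.05 over 14222 genes). Over all genes tested, 59.2% passed, 29.1% higher and 30.1% lower, so the members' share of 57.4% was close to that of all genes. Changes of at least 2-fold were found in 12 members (22.2%), 5 higher and 7 lower, against 14.4% of all genes tested (6.3% higher and 8.06% lower). The median log2 ratio over the 54 was −0.03, and over all genes it was 0.00. Among the 31 called members, 30 kept a single sign over the arrays, the exception being Adamts10. Over all genes, 8144 of the 8415 called did so, so this is common to called genes here.

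**Figure D1:**
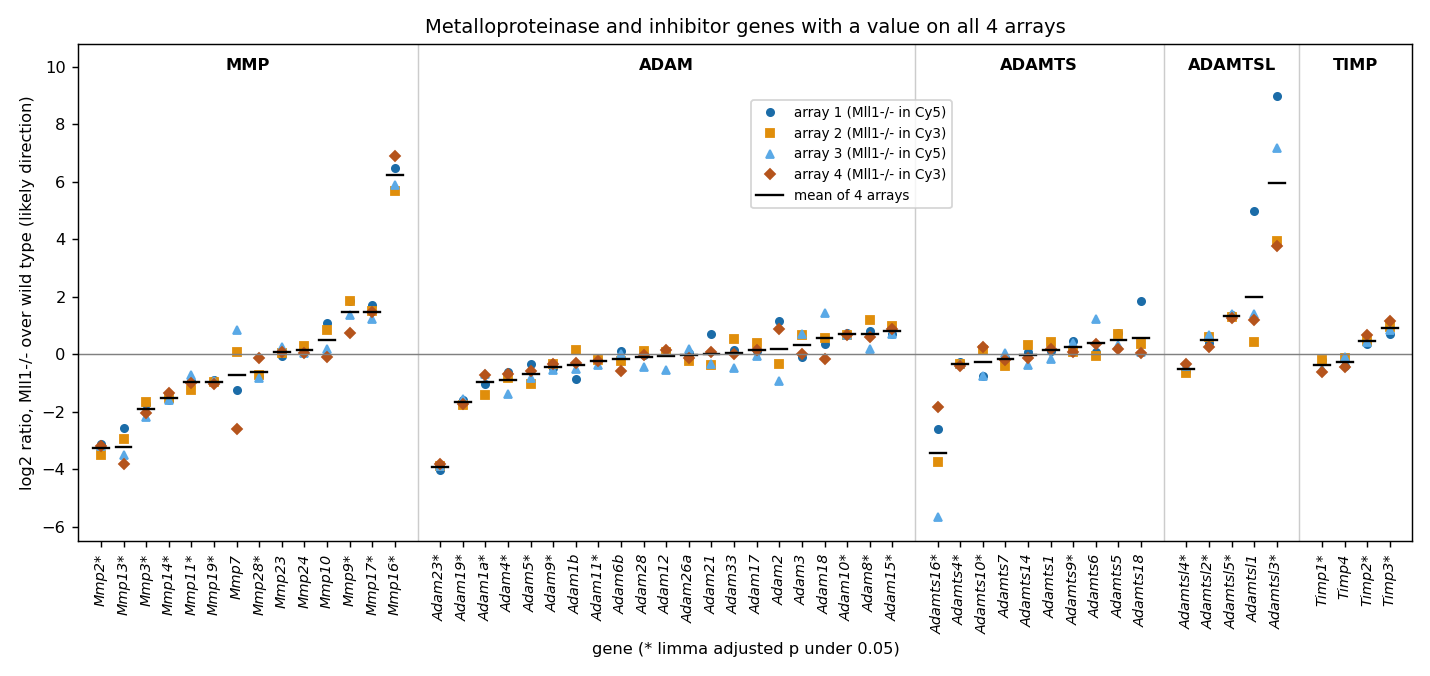
Log2 ratio of Mll1-/- over wild type (likely direction) for the 54 tested genes, by family and by mean ratio. Points are arrays, marked by dye orientation, black lines are means over the 4 arrays, and asterisks mark a limma adjusted p under 0.05. Mmp16 and Adamtsl3 lay highest, and the 4 TIMP genes stayed between −0.62 and 1.16 on every array.

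The gelatinases moved in opposite directions. Mmp2, gelatinase A, a secreted enzyme that degrades gelatin and basement membrane collagen and is made widely by fibroblasts, had log2 ratios of −3.11, −3.51, −3.20 and −3.20 on arrays 1 to 4. It was far below 0 on all arrays, with little spread between them. This was a 9.54-fold fall in Mll1-/- fibroblasts (−3.25 ± 0.17, limma adjusted p = 0.000525). Mmp9, gelatinase B, better known from inflammatory cells and bone-resorbing cells, had ratios of 1.85, 1.86, 1.38 and 0.74, each the mean of 11 features. It was above 0 on all 4 arrays and lowest on array 4. Mmp9 rose 2.74-fold (1.46 ± 0.53, limma adjusted p = 0.0145), but without array 1 the call was lost (1.34, adjusted p = 0.0585). The features behind these values differed in direction for neither gene: Mmp2 had 1 feature, and the 11 Mmp9 features ranged from 0.88 to 1.78, of which 10 passed when each feature was tested by itself.

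**Figure D2:**
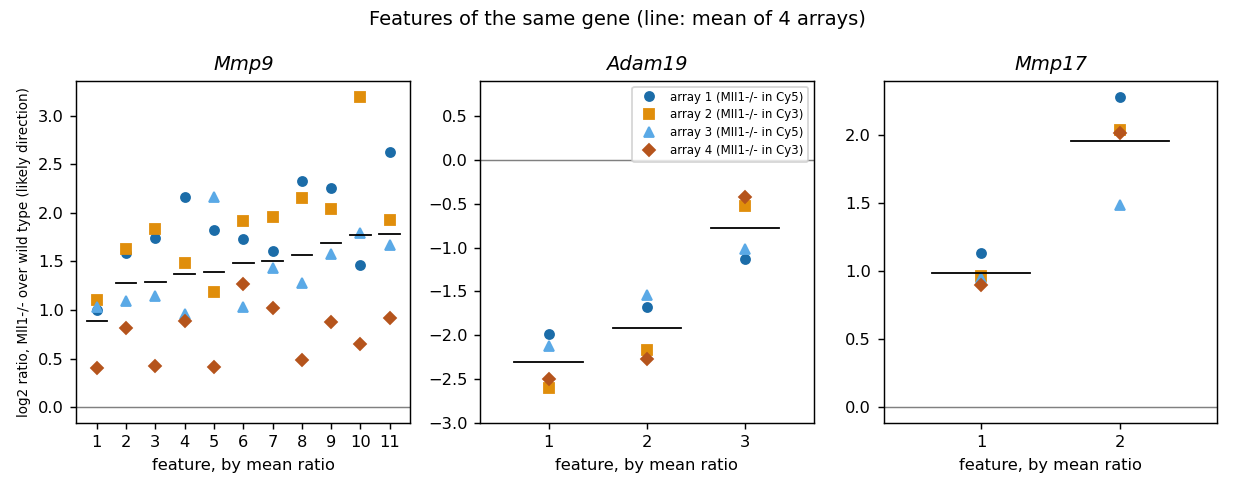
Log2 ratio of Mll1-/- over wild type (likely direction) for each feature of Mmp9, Adam19 and Mmp17, ordered by mean. Points are arrays and lines are means over 4 arrays, and the vertical scale differs between panels. All Mmp9 features lay above 0, and the 3 Adam19 features lay at −2.30, −1.92 and −0.78.

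Membrane-anchored MMPs also split. Mmp14, the membrane-type enzyme that cleaves the precursor of MMP2 at the cell surface, had ratios of −1.59, −1.51, −1.60 and −1.34. All arrays were below 0 and close together. Mmp14 fell 2.85-fold (−1.51 ± 0.12, limma adjusted p = 0.000846), and its 2 features agree within 0.09. Mmp16, a related membrane-type enzyme that can also process the MMP2 precursor, had ratios of 6.48, 5.68, 5.90 and 6.91. It was far above 0 on all 4 arrays. It rose 75.8-fold (6.24 ± 0.56, limma adjusted p = 0.00121). A second Mmp16 feature was blank on arrays 1 and 3 and read 0.57 and 1.51 on arrays 2 and 4, far below the first, so the size of the rise rests on 1 feature. Mmp17, a membrane-type MMP tied to the membrane by a glycolipid anchor, had ratios of 1.71, 1.50, 1.22 and 1.46. All arrays were above 0. It rose 2.78-fold (1.47 ± 0.20, limma adjusted p = 0.00257), with its 2 features at 0.99 and 1.96. Mmp23 (0.07 ± 0.13) and Mmp24 (0.14 ± 0.12), the other members of this class tested, missed the threshold (limma adjusted p = 0.426 and 0.149), though Mmp24 passed with arrays averaged as 1 with 4 and 2 with 3 (0.0352).

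The collagenase Mmp13 and the stromelysin Mmp3, whose genes lie in one MMP cluster on chromosome 9, both fell. Mmp13, which cleaves fibrillar collagen, had ratios of −2.58, −2.97, −3.51 and −3.83. Arrays 3 and 4 were lower than arrays 1 and 2. It fell 9.32-fold (−3.22 ± 0.56, limma adjusted p = 0.00309). Mmp3, stromelysin 1, which cleaves many matrix proteins and activates other MMPs, had ratios of −1.74, −1.65, −2.19 and −2.04, again lower on arrays 3 and 4 than on arrays 1 and 2. It fell 3.74-fold (−1.90 ± 0.25, limma adjusted p = 0.00221). The RefSeq gene order (assembly GRCm38.p6) places 10 MMP genes in this cluster, in the order Mmp13, Mmp12, Mmp1b, Mmp3, Mmp1a, Mmp10, Mmp8, Mmp27, Mmp20 and Mmp7. Of these, 8 were among the members and 4 could be tested, while Mmp1b and Mmp27 were not analysed here. Mmp10, stromelysin 2 and the nearest tested neighbour of Mmp3 after it in that order, had ratios of 1.07, 0.83, 0.18 and −0.10 (0.50 ± 0.55) and missed the threshold (limma adjusted p = 0.176), which it passed as higher with arrays averaged as 1 with 4 and 2 with 3 (0.00658). Mmp7, matrilysin, ranged from −2.61 to 0.84 with no common sign (−0.74 ± 1.52, limma adjusted p = 0.400). It passed as lower with arrays averaged as 1 with 2 and 3 with 4 (limma adjusted p = 0.0265), and its mean ran from −1.41 to −0.06 with 1 array left out. The neutrophil collagenase gene Mmp8 had a value on arrays 1 and 3 alone, −6.39 and −6.04. The other 3 genes had at most 2 arrays per feature: Mmp1a read −0.31 on array 1 with 1 feature and 0.48 and −2.73 on arrays 2 and 4 with the other, Mmp12 read −0.85 on array 4, and Mmp20 read 1.20 on array 3.

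**Figure D3:**
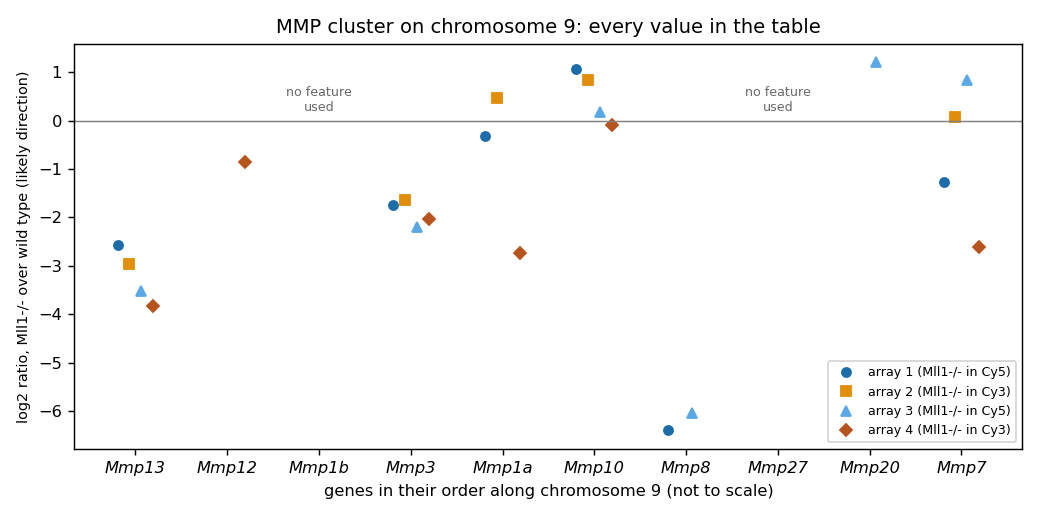
Every log2 ratio (Mll1-/- over wild type, likely direction) of the MMP genes of the chromosome 9 cluster, in gene order along the chromosome and not to scale. Points are arrays, and a missing point is a blank (Mmp1b and Mmp27 were not analysed here). Mmp13 and Mmp3 were below 0 on every array, Mmp8 had 2 values near −6, and Mmp10 lay around or above 0.

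Promoter windows of the cluster are shown because Mmp13 and Mmp3 fell together while Mmp10 in the same cluster was not lower, and Mmp14 is added as an MMP that fell and lies outside the cluster. The sequences are from RefSeq, build GRCm38.p6, on the plus strand, and run 5′ to 3′ from 250 bases before to 50 bases after the annotated start. Capitals mark the letters TGACTCA or TGAGTCA, the core recognised by AP-1 (Fos and Jun) proteins, and the letters TATAAA of a TATA box, both searched on both strands. The windows are chr9:7272264-7272563 for Mmp13, chr9:7445572-7445871 for Mmp3, chr9:7502092-7502391 for Mmp10 and chr14:54431348-54431647 for Mmp14.
Mmp13: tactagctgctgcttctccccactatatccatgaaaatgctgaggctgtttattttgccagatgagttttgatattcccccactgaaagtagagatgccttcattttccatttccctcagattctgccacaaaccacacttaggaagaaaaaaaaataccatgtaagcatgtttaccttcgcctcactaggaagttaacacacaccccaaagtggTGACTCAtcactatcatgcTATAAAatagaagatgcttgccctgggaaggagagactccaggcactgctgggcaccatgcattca
Mmp3: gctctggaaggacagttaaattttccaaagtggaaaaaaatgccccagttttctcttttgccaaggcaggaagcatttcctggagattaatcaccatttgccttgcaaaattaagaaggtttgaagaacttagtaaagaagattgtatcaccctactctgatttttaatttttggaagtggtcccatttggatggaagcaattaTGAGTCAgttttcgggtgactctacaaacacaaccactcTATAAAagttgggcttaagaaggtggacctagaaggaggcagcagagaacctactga
Mmp10: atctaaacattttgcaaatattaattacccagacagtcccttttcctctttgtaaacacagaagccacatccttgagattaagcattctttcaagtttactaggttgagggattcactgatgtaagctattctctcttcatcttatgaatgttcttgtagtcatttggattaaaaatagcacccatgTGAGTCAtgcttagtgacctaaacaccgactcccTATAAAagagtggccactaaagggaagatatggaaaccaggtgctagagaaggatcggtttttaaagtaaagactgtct
Mmp14: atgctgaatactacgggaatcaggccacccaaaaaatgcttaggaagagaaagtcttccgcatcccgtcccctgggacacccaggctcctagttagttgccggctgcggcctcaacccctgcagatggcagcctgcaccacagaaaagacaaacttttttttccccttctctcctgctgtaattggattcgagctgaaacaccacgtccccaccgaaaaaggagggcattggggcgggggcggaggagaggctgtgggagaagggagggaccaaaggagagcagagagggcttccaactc
The AP-1 letters began 35 bases before the start in Mmp13, 46 bases in Mmp3 and 63 bases in Mmp10, each followed by TATAAA at 16, 7 and 29 bases. Neither motif occurred in the Mmp14 window. Windows were found for 46 of the 76 members and for all 10 genes of the cluster. The AP-1 letters occurred in 7 of the 10 cluster genes and TATA letters in 9 of 10, against 5.95% and 15.7% of the 27025 genes with a window. Both occurred together in 7 of the cluster's genes and in 1.31% of all genes. Among MMPs outside the cluster, 0 of 7 had the AP-1 letters. A match describes these letters only. The tested cluster genes Mmp13, Mmp3, Mmp10 and Mmp7 all carried both motifs, and in the fit over all 4 arrays 2 of these 4 genes fell and 2 did not pass, although averaging arrays in pairs gave Mmp10 a call as higher or Mmp7 one as lower.

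The remaining tested MMPs were lower. Mmp11, stromelysin 3, had ratios of −0.95, −1.26, −0.72 and −0.99 (−0.98 ± 0.22, limma adjusted p = 0.00320). Mmp19, a widely expressed secreted MMP, had −0.91, −0.97, −0.93 and −1.05 (−0.97 ± 0.06, limma adjusted p = 0.00112). Both mean falls were just under 2-fold, and both genes were below 0 on every array. Mmp28, epilysin, had −0.75, −0.71, −0.83 and −0.13 (−0.61 ± 0.32, limma adjusted p = 0.0221), a call lost without array 1 (−0.62, adjusted p = 0.0769) or array 3 (−0.59, 0.0834). Array 4 stood apart from the rest. A second Mmp28 feature, blank on array 3, went the other way with 0.82, 1.11 and −0.12 on arrays 1, 2 and 4. Altogether 3 MMPs rose and 7 fell among 14 tested (71.4% called, against 59.2% of all genes tested).

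Of 21 ADAMs tested, 3 rose and 7 fell (47.6% called, against 59.2% of all genes tested). Of the falls 2, Adam23 and Adam19, were of at least 2-fold. Adam23, a brain ADAM without a working catalytic site that acts in adhesion and synapse proteins, had ratios of −4.05, −3.88, −3.89 and −3.83. The arrays lay close together. It fell 15.05-fold (−3.91 ± 0.09, limma adjusted p = 0.000426). Another Adam23 feature, blank on array 4, read −4.94, −5.87 and −4.35 on arrays 1 to 3, and the third was blank on every array. Adam19, meltrin beta, which sheds neuregulin and is needed for heart development, had −1.60, −1.77, −1.56 and −1.73 as the mean of 3 features. It fell 3.17-fold (−1.67 ± 0.10, limma adjusted p = 0.000523). All 3 features fell when tested one by one, but their means ran from −2.30 to −0.78, the widest spread among the 18 members with several complete features. On arrays 1 to 4 the lowest feature read −1.98, −2.60, −2.13 and −2.50, and the highest −1.13, −0.52, −1.02 and −0.43. The features followed the dyes in opposite ways, so the SD of their average is smaller than the spread within each.

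Of the other ADAMs with a protease site, Adam10, which cleaves Notch receptors and cadherins, had ratios of 0.73, 0.66, 0.68 and 0.67. It rose 1.61-fold (0.69 ± 0.03, limma adjusted p = 0.00166). This SD, the smallest of any member tested, is that of a mean of 2 features, which varied more singly. They read 0.71, 0.72, 0.65 and 0.61, and 0.76, 0.60, 0.72 and 0.73, on arrays 1 to 4. Adam17, which releases TNF and EGF-receptor ligands, had 0.12, 0.40, −0.06 and 0.15 (0.15 ± 0.19) and did not pass (limma adjusted p = 0.144) except with arrays averaged as 1 with 4 and 2 with 3 (0.0318). Adam15, a widely expressed ADAM that binds integrins, had 0.69, 0.97, 0.71 and 0.88 and rose 1.76-fold (0.81 ± 0.14, limma adjusted p = 0.00142). Adam9, another widely expressed sheddase, had −0.47, −0.34, −0.55 and −0.36 and fell 1.35-fold (−0.43 ± 0.10, limma adjusted p = 0.00393). Adam8, best known from leukocytes, rose 1.61-fold (0.69 ± 0.43, range 0.17 to 1.19, limma adjusted p = 0.0379), but this call was lost without array 1, 2 or 4 (adjusted p = 0.100, 0.113 and 0.0556) and with arrays averaged as 1 with 2 and 3 with 4 (0.0721). Adam12 (−0.05 ± 0.33), which like Adam19 is a meltrin, Adam28 (−0.10 ± 0.24) and Adam33 (0.05 ± 0.42) did not pass (limma adjusted p from 0.391 to 0.828). Of the 9 ADAMs with a protease site known from tissues outside the testis, 3 rose and 2 fell. Over all genes tested, 29.1% were called higher and 30.1% lower.

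Adam11, the other brain ADAM tested, was close to 0 at −0.18, −0.19, −0.37 and −0.23 (−0.24 ± 0.09, limma adjusted p = 0.0277). These are means of 3 features, of which 2 followed the dyes in opposite ways. On arrays 1 to 4 they read −0.39, −0.16, −0.71 and 0.04, and 0.05, −0.38, 0.11 and −0.45. The Adam11 call did not survive the loss of any array (limma adjusted p from 0.0604 to 0.123). It was also lost with single features (0.0780) and with arrays averaged as 1 with 2 and 3 with 4 (0.105). ADAMs known mainly from the testis and epididymis, many of them sperm surface proteins, were often blank. Of 18 such genes 10 could be tested, 3 fell and 0 rose, and 40.4% of their feature values were blank. These 3 of 10 falls were close to the 30.1% of all genes tested that were called lower. Those that fell were Adam1a (−0.97 ± 0.34), Adam4 (−0.88 ± 0.34) and Adam5 (−0.69 ± 0.31), with limma adjusted p of 0.0144, 0.0162 and 0.0227. Each of these calls was lost when 1 array was left out, Adam1a without array 1 (−0.88, adjusted p = 0.0580), Adam4 without array 2 (−0.85, 0.0721) or 4 (−0.92, 0.0607), and Adam5 without array 2 (−0.57, 0.0743) or 3 (−0.57, 0.0683). The Adam5 call did not hold either with arrays averaged as 1 with 4 and 2 with 3 (0.0727). A second Adam5 feature, blank on arrays 1 and 3, read 0.69 on array 2 and −0.36 on array 4. The complete Adam5 feature read −1.05 and −0.57 there. The other 7, Adam1b, Adam2, Adam3, Adam6b, Adam18, Adam21 and Adam26a, lay between −0.38 and 0.55 and missed the threshold, Adam1b by least (limma adjusted p = 0.0623). Adam1b and Adam18 passed with arrays averaged as 1 with 2 and 3 with 4 (limma adjusted p = 0.0404 and 0.0287).

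Of 10 ADAMTS enzymes tested, 1 rose and 3 fell (40% called, against 59.2% of all genes tested). The 4 proteoglycan-cleaving enzymes tested gave small ratios. The other 3 of this class, Adamts8, Adamts15 and Adamts20, had no complete feature. Of them Adamts8 read 2.72, 3.66 and 2.98 on arrays 1, 2 and 4. Adamts1, an early-response gene that also binds VEGF, had 0.12, 0.44, −0.17 and 0.17 (0.14 ± 0.25, limma adjusted p = 0.243). It passed, of the settings tried, only with arrays averaged as 1 with 4 and 2 with 3 (0.0285). Adamts4, an aggrecanase, had −0.27, −0.35, −0.33 and −0.40 and fell 1.26-fold (−0.34 ± 0.05, limma adjusted p = 0.00649), a call lost without array 3 (−0.32, 0.0504) and with arrays averaged as 1 with 2 and 3 with 4 (0.0508). Adamts5, the main aggrecanase of mouse cartilage and the neighbour of Adamts1 on chromosome 16, had 0.73, 0.72, 0.31 and 0.18 (0.49 ± 0.28) and narrowly missed the threshold (limma adjusted p = 0.0529). All 4 of its arrays were above 0, with arrays 1 and 2 above arrays 3 and 4. Adamts9, a versican-cleaving enzyme, had 0.46, 0.09, 0.39 and 0.07 (0.25 ± 0.20, limma adjusted p = 0.0118). Its ratios followed the dyes, higher where Mll1-/- carried Cy5 (limma dye term, unadjusted p = 0.0146). The Adamts9 call was lost whichever array was left out (adjusted p from 0.0658 to 0.0823) and without the dye term (0.0710, or 0.0644 with a random block). It was also lost with arrays averaged as 1 with 2 and 3 with 4 (0.0831), and the 2 Adamts9 features read −0.19 and 0.70.

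Adamts16, an ADAMTS studied for its links to blood pressure and to genital and kidney development, had the lowest mean ratio of the ADAMTS genes tested, with −2.59, −3.74, −5.66 and −1.83. All arrays were below 0 but far apart. A second Adamts16 feature had a value on array 4 alone, −0.99. The gene fell 10.97-fold (−3.46 ± 1.66, limma adjusted p = 0.0242), a call lost without array 2 (−2.98, adjusted p = 0.0860), without array 4 (−3.93, 0.0538) or with arrays averaged as 1 with 4 and 2 with 3 (0.0760). Adamts10, a fibrillin-binding ADAMTS, passed in the model (−0.27 ± 0.56, limma adjusted p = 0.0122) although its ratios followed the dyes, at −0.76 and −0.74 where Mll1-/- carried Cy5 and at 0.16 and 0.27 where it carried Cy3. Without the dye term its adjusted p was 0.363, with arrays averaged as 1 with 2 and 3 with 4 it was 0.0760, and with 1 array left out it was 0.0549 to 0.0777. Adamts6 (0.41 ± 0.58), Adamts7 (−0.17 ± 0.18), Adamts14 (−0.03 ± 0.30), a procollagen N-proteinase, and Adamts18 (0.58 ± 0.85) did not pass (limma adjusted p from 0.0928 to 0.864). Of these, Adamts7 passed with arrays averaged as 1 with 4 and 2 with 3 (limma adjusted p = 0.0250), Adamts6 without array 1 (0.70, 0.0413) and Adamts18 without array 3 (1.02, 0.0184). With 1 array left out, Adamts6 ran from 0.12 to 0.70 and Adamts18 from 0.14 to 1.02. The procollagen proteinase gene Adamts2 was not analysed here.

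All 5 ADAMTS-like genes could be tested, and 3 rose and 1 fell (80% called, against 59.2% of all genes tested). Adamtsl3, a matrix glycoprotein known from studies of human height, had ratios of 8.97, 3.96, 7.17 and 3.76. Every array was far above 0, and both arrays with Mll1-/- in Cy5 lay above both arrays with it in Cy3. It rose 62.5-fold (5.97 ± 2.54, limma adjusted p = 0.002), with means from 5.52 to 6.42 over the settings tried, and its dye term had an unadjusted p of 0.00656. Adamtsl5, which binds fibrillin microfibrils, had 1.37, 1.29, 1.40 and 1.25. The arrays agree closely, and it rose 2.51-fold (1.33 ± 0.07, limma adjusted p = 0.000662). Adamtsl1, punctin, stood at 4.97 on array 1 and at 0.44, 1.41 and 1.19 on the others (2.002 ± 2.02) and missed the threshold (limma adjusted p = 0.0859), although its mean was past 2-fold. It passed without array 1 (1.11, adjusted p = 0.0437), without array 3 (2.89, 0.0134) and with arrays averaged as 1 with 2 and 3 with 4 (0.0437). Adamtsl2, a gene of geleophysic dysplasia in humans, rose 1.40-fold (0.49 ± 0.20, limma adjusted p = 0.0223), and Adamtsl4, a gene of lens dislocation in humans, fell 1.42-fold (−0.50 ± 0.15, limma adjusted p = 0.0129). The call of Adamtsl2 was lost without array 1, 2 or 3 (adjusted p = 0.0501, 0.0738 and 0.0800) and with arrays averaged as 1 with 4 and 2 with 3 (0.0678), and that of Adamtsl4 without array 1 (−0.45, 0.0585).

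All 4 TIMP genes had values from every feature on every array, and none changed by 2-fold. Timp3, the inhibitor that is bound to the matrix and also blocks several ADAMs, had ratios of 0.70, 0.94, 0.84 and 1.16. It rose 1.88-fold (0.91 ± 0.19, limma adjusted p = 0.00241). Timp2, which also serves as the adaptor through which membrane-bound MMP14 holds the MMP2 precursor, had 0.36, 0.46, 0.42 and 0.65 and rose 1.39-fold (0.47 ± 0.13, limma adjusted p = 0.00645). Both were above 0 on all arrays, whereas Mmp2 and Mmp14 were below 0 on all. Timp1, an inducible, soluble inhibitor whose gene is on the X chromosome, had −0.20, −0.22, −0.51 and −0.62. Like Mmp13 and Mmp3 it was lower on arrays 3 and 4 than on arrays 1 and 2. Its fall of 1.31-fold passed narrowly (−0.39 ± 0.21, limma adjusted p = 0.0473) and was lost whichever array was left out (adjusted p from 0.0578 to 0.150), with arrays averaged as 1 with 2 and 3 with 4 (0.0988) and in 4 further settings (0.0511 to 0.0568). Timp4 had −0.39, −0.13, −0.10 and −0.45 (−0.27 ± 0.18) and did not pass (limma adjusted p = 0.0770), but passed as lower without the dye term (0.0465) and with the random block (0.0418).

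The families can be set side by side by the size of their ratios and by their direction. The median absolute log2 ratio was 1.22 over 14 MMPs, 0.38 over 21 ADAMs, 0.30 over 10 ADAMTS genes, 1.33 over 5 ADAMTS-like genes and 0.43 over 4 TIMPs, beside 0.34 over all genes tested. Changes of at least 2-fold made up 7 of 14 MMPs, 2 of 21 ADAMs, 1 of 10 ADAMTS genes, 2 of 5 ADAMTS-like genes and 0 of 4 TIMPs. Over all genes tested this share was 14.4%. The median log2 ratios were −0.67, −0.05, 0.05, 1.33 and 0.10 in the same order of families, and the MMP median was below 0 on each array, from −0.83 to −0.34. These are descriptions of families of unequal size, the difference between them was not tested, and only genes with a complete feature enter them.

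Blanks were spread unevenly over the families. Of 136 member features, 85 (62.5%) had a value on all 4 arrays, against 71.4% of all features with 1 symbol and 64.5% of all features. The other features of these families comprised 36 that had values on some arrays and 15 that were blank on all. Complete features made up 27 of 36 for MMPs, 29 of 53 for ADAMs, 17 of 34 for ADAMTS genes, 6 of 7 for ADAMTS-like genes and 6 of 6 for TIMPs. What a blank stands for is not given in the sources used here. By array, 37, 34, 43 and 25 of the 136 features were blank on arrays 1 to 4, so array 3 was the barest and array 4 the fullest, as over all features, where 11333, 11601, 13415 and 7593 were blank. In 22 genes no feature was complete. Of them, 3 had no value at all: Adam7, Adam22 and Adamts19.

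**Figure D4:**
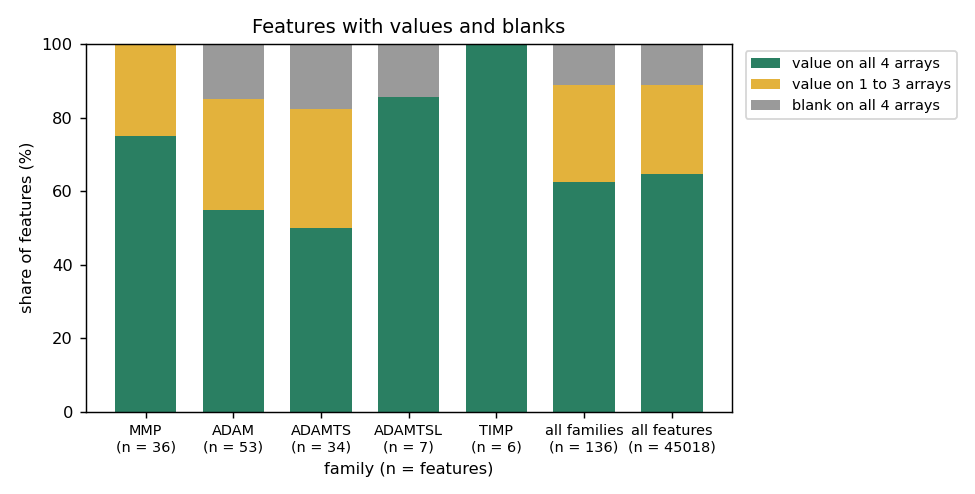
Share of features in percent with a value on all 4 arrays, on 1 to 3 arrays or on none, for each family, for all member features and for all features of the array. TIMP features were all complete, and ADAMTS features were complete in 17 of 34 cases.

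Among the 19 genes with some values, 5 had a feature with a value on 3 arrays, Adam25, Adam30, Adam32, Adamts8 and Adamts12. In a fit that admitted such features, Adamts8, an ADAMTS known to inhibit angiogenesis, had 2.72, 3.66 and 2.98 on arrays 1, 2 and 4 and rose (3.02, limma adjusted p = 0.0102 over 15283 genes). Adam32, a testis ADAM, had −1.44, −2.87 and −2.07 on arrays 1 to 3 and fell (−2.31, limma adjusted p = 0.0134). Adam25, likewise a testis gene, had 0.85, 0.97 and 0.44 on arrays 1, 3 and 4 and rose (0.67, limma adjusted p = 0.0165). Adamts12 (0.53, limma adjusted p = 0.0624) and Adam30 (−0.01, limma adjusted p = 0.936) did not pass. The other 14, Mmp1a, Mmp8, Mmp12, Mmp20, Mmp21, Mmp25, Adam6a, Adam20, Adam24, Adam29, Adamts3, Adamts13, Adamts15 and Adamts20, had values on 1 or 2 arrays per feature and were not tested. Mmp25, a membrane-anchored MMP of leukocytes, read 1.28 and 5.07 on arrays 2 and 4. Adamts15, the neighbour of Adamts8 on chromosome 9, read 0.70 and 1.78 on the same arrays, and Adam6a read −1.13 and −1.39 on arrays 3 and 4.

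Genes that act with these enzymes were read from 4 lists, whose counts stand beside the 29.1% of all genes called higher and the 30.1% called lower. Of 9 genes of plasminogen activation, the serine protease system that acts upstream of several MMPs, 6 were tested, 1 rose and 1 fell. The urokinase receptor gene Plaur rose 2.38-fold (1.25 ± 0.13) and urokinase, Plau, fell 1.47-fold (−0.56 ± 0.25). Of 17 other proteases and enzymes that cut or mature matrix, 10 were tested, 4 rose and 4 fell. The serine protease genes Htra1 (5.08 ± 0.24, 33.9-fold) and Prss23 (3.35 ± 0.46, 10.2-fold) rose most, followed by cathepsin L, Ctsl (0.60 ± 0.12), whereas the membrane metalloendopeptidase neprilysin, Mme (−2.98 ± 0.09, 7.90-fold), Htra3 (−1.74 ± 0.05) and cathepsin B, Ctsb (−1.07 ± 0.11), fell. All 8 of these genes had limma adjusted p-values between 0.000426 and 0.00601. The 2 Htra3 features with a value on every array differed, and 1 of them read −0.45 by itself.

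Of 20 regulators of MMPs and ADAMs, 14 were tested, 5 rose and 8 fell. Among the falls, Bsg (−0.42 ± 0.47, limma adjusted p = 0.00594) had ratios that followed the dyes. They were −0.77 and −0.87 with Mll1-/- in Cy5 and 0.04 and −0.06 with it in Cy3. The tetraspanins that escort ADAM10 to the cell surface went both ways, with Tspan15 (1.53 ± 0.24) and Tspan33 (1.03 ± 0.14) higher and Tspan14 (−0.87 ± 0.07) and Tspan17 (−0.75 ± 0.24) lower, as was Tspan5 (−0.36 ± 0.28, limma adjusted p = 0.0377). The proprotein convertase gene Furin, whose product activates membrane-type MMPs and many ADAMs, rose 1.60-fold (0.68 ± 0.19), and Pcolce, an enhancer of procollagen processing, fell 2.17-fold (−1.12 ± 0.11). Of 14 substrates of ADAM and ADAMTS enzymes, 13 were tested, 3 rose and 8 fell. The EGF-receptor ligands betacellulin, Btc (4.01-fold), and Hbegf (0.76 ± 0.16) rose with the hyaluronan receptor Cd44 (1.22 ± 0.18), while epiregulin, Ereg (−1.78 ± 0.17), decorin, Dcn (−2.21 ± 0.85), and von Willebrand factor, Vwf (−1.38 ± 0.25), fell. Leaving aside Bsg and Tspan5, the 12 genes named here had limma adjusted p-values from 0.000885 to 0.0190. Dcn was the most uneven, at −1.45 and −1.52 on arrays 1 and 2 and −3.06 and −2.82 on arrays 3 and 4, and its call was lost without array 4 (−1.89, adjusted p = 0.0634). Of the 2 Ereg features 1 read −0.95 by itself. Over the 4 lists the medians were −0.09, 0.09, −0.23 and −0.31, beside 0.00 over all genes tested.

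Markers of the cell types present could be read only as ratios. Their counts stand beside the 29.1% of all genes called higher and the 30.1% called lower. Of 10 fibroblast markers 8 had values on all arrays, 3 rose and 4 fell. Vimentin, Vim (0.57 ± 0.13), Col1a1 (0.53 ± 0.14) and S100a4 (1.04 ± 0.29) rose. Ddr2 (−3.53 ± 0.12), the receptor Pdgfra (−2.03 ± 0.24), Lum (−1.88 ± 1.13) and Pdgfrb (−1.59 ± 0.21) fell. Of 9 macrophage and blood markers 4 were tested, with lysozyme, Lyz2, higher (2.27 ± 0.32), Cd14 lower (−3.78 ± 0.12) and the common leukocyte gene Ptprc at 0.57 ± 1.55. Endothelial, epithelial and cartilage and bone markers were tested in 3, 4 and 5 cases, with 1 higher and 1 lower, 0 higher and 1 lower, and 0 higher and 3 lower. The endothelial marker called lower was Cdh5 (−0.39 ± 0.96, limma adjusted p = 0.0139). Its ratios followed the dyes, at 0.42 and 0.46 with Mll1-/- in Cy5 and −1.35 and −1.09 with it in Cy3. Mmp8, Mmp9, Mmp12 and Mmp25 are also genes of leukocytes, and the part of other cell types in their ratios was not tested.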

How the data were processed

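RNA from a knockout and a wild-type mouse fibroblast line was compared on 4 two-colour Agilent 4x44k arrays, dyes swapped on 2, per the labels' protocols. Agilent Feature Extraction 10.1.1 is named in the submitters' processing notes. Each deposited value was read as a log2 ratio that the authors had computed for 1 feature on 1 array, with all arrays turned one way, and 0 deposited sample columns went unused. How the authors corrected background and normalized, the base, the direction and what blanks mean are not given in these sources. Base 2 was taken because the highest deposited value, 14.7, would as a natural log be a ratio of 2373049, beyond the 65536 levels of a 16-bit scanner, and more so on base 10. Features were named through the platform annotation, which gave 33653 features 1 symbol, 56 several and 11309 none, and features with several or none were left out. Chromosomes, gene order and promoter windows came from RefSeq, GRCm38.p6. Features with values on all 4 arrays (24012, for 14222 genes) were averaged per gene and fitted with limma 3.58.1 in R 4.3.3 with a gene-specific dye term, with 2 residual degrees of freedom. The Benjamini-Hochberg method adjusted p over every gene tested (threshold 0.05). The fit was also run on simulated data with independent noise and no dye effect. That run cannot show how the fit behaves with dye effects or shared RNA extracts. Members with a change past the threshold of at least 2-fold, the TIMPs and a fixed set of well-studied members were to be named, as were up to 3 genes each way per list. The other members are named to account for all, and the marker genes given with values were picked after these were seen. Members, lists and tests were chosen with earlier results of these data known. Alternatives were no dye term, centring, scaling, single features, features with 3 values, a robust prior, averaged array pairs, array pairs as a random block (added after seeing the data, without the dye term, since it could not be fitted beside it) and each array left out. For single features, each gene was represented by its middle complete feature by ratio. With an even number of features, the middle one nearer 0 was taken. The number of arrays limits the precision.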

Additional observations from a re-analysis of the deposited data

Results flagged for a closer look

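In 3 of 54 tested members 1 array lay far from the other 3, and chance marks about 1 in 20 such groups. For Mmp28 this was array 4, with a log2 ratio of −0.13, where the others ran from −0.83 to −0.71. For Adam12 it was array 3 at −0.54, the others running from 0.08 to 0.16. For Adamts18 it was array 1 at 1.84, against 0.06 to 0.35 on the rest.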

How the results depend on the processing

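Over 13 alternatives 17 of the 31 calls held and 14 were lost under at least 1, and of the 12 called changes of at least 2-fold 10 held (not Mmp9 and Adamts16). Leaving out an array or averaging arrays in pairs leaves fewer residual degrees of freedom than the main fit. A call lost there can therefore come with a steady ratio, as for Adamts9 (0.24 to 0.27 with 1 array left out). A call gained with averaged pairs rests on 2 values. Called members numbered 9 to 16 higher and 13 to 19 lower, against 12 and 19. No called member changed sign except Adamts9. Taken over features, the MMP median was 0.88 (11 of its features are Mmp9's), against −0.67 over genes, and the TIMP median −0.29, against 0.10. Admitting features with 3 values put the ADAMTS median at 0.19, against 0.05. With each array left out in turn, the median ran from −0.77 to −0.41 for MMPs, from −0.210 to −0.00046 for ADAMs, from −0.0331 to 0.143 for ADAMTS genes, from 0.074 to 0.15 for TIMPs and from −0.17 to 0.044 over all members. The same omission turned the sign of uncalled genes, with ranges of −0.0051 to 0.15 for Mmp23, −0.34 to 0.71 for Adam2, −0.21 to 0.11 for Adam12, −0.25 to 0.28 for Adam21, −0.11 to 0.21 for Adam33 and −0.15 to 0.088 for Adamts14. Represented by their middle feature alone, Mmp24 (−0.046), Adam12 (0.17), Adamts9 (−0.19) and Adamts14 (0.21, limma adjusted p = 0.0430) were reversed. The other Adam12 feature read −0.27 and passed as lower (limma adjusted p = 0.00972), though its ratios followed the dyes. By themselves 1 Adamts5 feature (0.61, limma adjusted p = 0.0171) and 1 Timp1 feature (−0.48, 0.0282) also passed. Adamts5 passed without the dye term (limma adjusted p = 0.0237), with scaled arrays (0.0469), with arrays averaged as 1 with 4 and 2 with 3 (0.00896) and with the random block (0.0231). The cause was not tested. No paired analysis was possible because both genotypes share every array, so the pairing is already within each ratio. Signal over background is unknown, and 4 arrays limit the precision.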

Other observations

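Some values lie outside every comparison because their features were blank on other arrays. Mmp21 read 0.82, Adamts13 1.84 and Mmp12 −0.85, all on array 4 alone. The 3 Adamts20 features read −4.53 on array 4, −1.33 on array 4, and −0.54 and −1.54 on arrays 2 and 3. Adam20 read −1.51 and 0.08 on arrays 2 and 4, Adam24 read −0.97 on array 2, Adam29 read −2.47 on array 1, and Adamts3 read 1.52 on array 1. An Adam1b feature read 2.65 on array 2 alone, while its complete feature read 0.14 there.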
